A study of Oryza sativa with 12 samples.

Results

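The genes described here are the 40 rice genes whose symbol or synonym in the array's gene annotation, after an optional Os prefix, reads MADS, SPL, GRF or NAC followed by a number. They were taken from 15140 genes that had a row of their own on the array, and they comprise 21 *MADS*, 8 *SPL*, 4 *GRF* and 7 *NAC* genes. The genes were chosen by name, with earlier results of these data known. Signal was used only to choose between rows of the same gene. Each gene was read from a row paired with that gene alone. *OsMADS1* had 2 such rows and the brighter was used, and each of the other genes had 1. Only *NAC077* was taken by its symbol, and the other 39 by a synonym. A name does not fix a product. In the synonyms SPL7 of *HSFA4D* and SPL18 of *OsAT1*, SPL stands for spotted leaf, and these genes encode a heat shock factor and an acyltransferase. They were counted with the *SPL* genes and are named apart below, which leaves 38 genes whose products belong to the families. *OsMADS18* also carries the synonyms MADS2 and MADS28 in the annotation. *OsMADS6*, *OsMADS14*, *OsMADS15*, *OsMADS22* and *OsMADS56*, *SPL2*, *SPL13*, *SPL14* and *SPL17*, *OsGRF3*, *OsGRF4*, *OsGRF5* and *OsGRF10*, and *OsNAC2*, *OsNAC5*, *OsNAC9* and *OsNAC10* were not analysed here.

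Rice (*Oryza sativa*, host strain Taichung 65) seedlings carrying *pACT1-GVG>OsWOX4:RNAi* were grown for 5 days and then kept in liquid medium with 10 μM DEX, or without it as the mock, for 3 h or 12 h. Total RNA of the SAM and leaf primordia was hybridized to 1-color Affymetrix rice gene arrays, with 3 biological replicates in each of the 4 groups (mock 3 h, DEX 3 h, mock 12 h and DEX 12 h). All 12 arrays came from plants with the construct. GVG is a transcription factor activated by DEX, a synthetic glucocorticoid, and here the broadly active *ACT1* promoter drove it, so that GVG was not confined to 1 cell type. Arrays of plants without the construct were not analysed here, so that effects of the steroid, of GVG and of *OsWOX4* silencing cannot be told apart. Each shoot apex sample mixed several tissues. For every gene below, fewer cells of a type and less RNA per cell cannot be told apart.

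These families encode plant transcription factors that set organ identity, growth phase and stress responses. MADS-box proteins act in complexes, and the classes that specify floral organs and flowering time are the best known. SPL proteins carry the SBP DNA-binding domain, and many of their mRNAs are targets of miR156, which holds plants in the juvenile phase. GRF proteins are growth-regulating factors of dividing leaf and stem cells; their mRNAs are targets of miR396 and their protein partners are GIF coactivators. NAC proteins act in boundary formation, senescence, cell death and the response to drought, salt and heat.

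The deposited log2 signals were converted to linear signals (array units) for the values below, and tests were made on the log2 scale. The median log2 signal lay between 5.72 and 5.76 on the 9 arrays of mock 3 h, DEX 3 h and mock 12 h, and between 5.64 and 5.66 on the DEX 12 h arrays. The upper quartile was farther apart, at 7.38 to 7.45 on those 9 arrays and 7.15 to 7.24 on the DEX 12 h arrays. The *OsWOX4* row read 117 to 142 on the mock 3 h arrays, 194 to 262 on the DEX 3 h arrays, 125 to 149 on the mock 12 h arrays and 364 to 432 on the DEX 12 h arrays. It was thus higher on the arrays labelled DEX. The row may also read the RNAi transcript, so it does not check the labels. The meristem gene *OSH1* had a mean signal of 113 ± 22.3 (SD, n = 3) in mock 12 h and 67.9 ± 4.84 in DEX 12 h, and the midrib gene *DL* had 388 ± 43.8 and 143 ± 23.7. The summed signal of 3 genes of chlorophyll a/b-binding proteins, taken as markers of green leaf, was 2480 to 2570 on the mock 12 h arrays and 144 to 207 on the DEX 12 h arrays. Of 5 meristem markers, 3 fell and 2 rose at 12 h, with summed signals of 430 to 545 on the mock arrays and 371 to 394 on the DEX arrays. Of 4 markers of leaf primordia, 2 fell and 2 rose, with 1420 to 1540 and 2750 to 2960. The part of these shifts in the results below was not tested.

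After 12 h of DEX, 12 of the 40 genes rose and 6 fell, while 22 did not pass the test. Changes were called at an adjusted p under 0.05 in 1 limma fit of the 12 arrays, adjusted over all 54922 rows. In that comparison 43.0% of all rows were called, 14.9% higher and 28.0% lower, so the called share of the 40 genes (45%) was near that of the array. With 1 row for each of the 15140 genes the shares were 55.1%, 22.8% and 32.4%. The split of the rows depends on the scaling: quantile normalization gave 20.2% higher and 23.4% lower. The counts by family were as follows, and the difference between families was not tested. All 7 *NAC* genes rose. Of the 8 genes with an *SPL* name, 3 rose and none fell. Of 4 *GRF* genes, 3 fell and none rose, and of 21 *MADS* genes 2 rose and 3 fell. The median log2 change was 1.495 for *NAC*, 0.09 for *SPL*, -0.34 for *GRF* and 0.01 for *MADS* genes, beside -0.06 over all rows. For 14 of the 40 genes the DEX 12 h arrays lay fully above the mock 12 h arrays and for 8 fully below, beside 20.2% and 32.2% of all rows. By the limits the study used for these arrays, a change of at least 2-fold and p under 0.01 (here the unadjusted limma p), 8 of the 40 genes were higher and 2 lower, beside 5.17% and 9.76% of all rows.

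**Figure D1:**
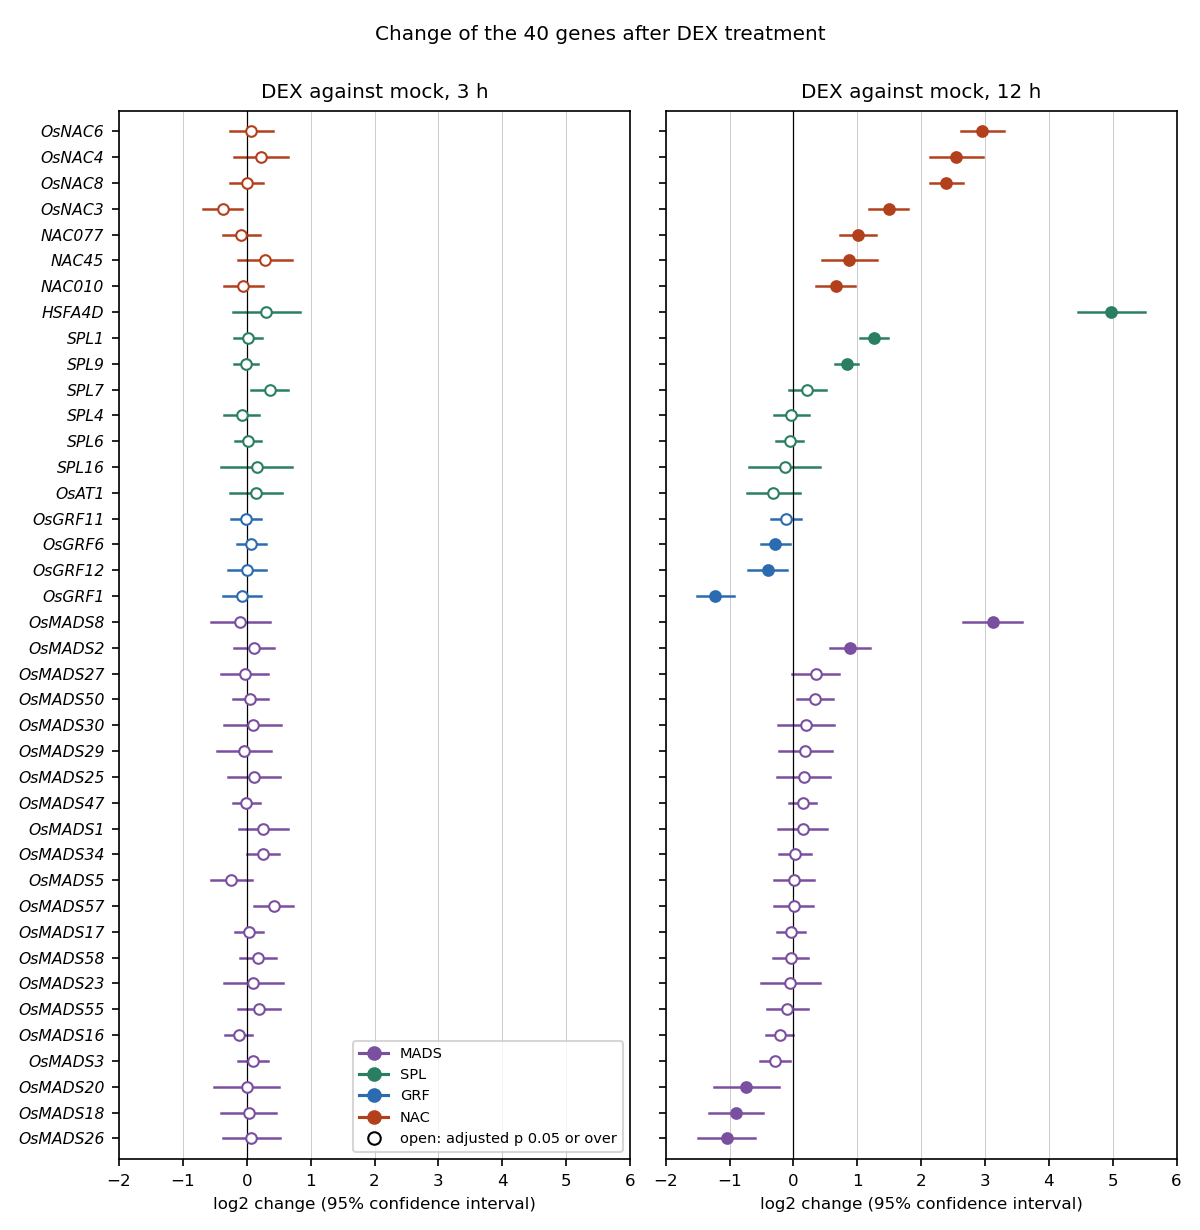
Log2 change of each of the 40 genes in DEX against mock at 3 h (left) and 12 h (right) on the x axes, with bars for the 95% confidence interval from limma and 1 row per gene, colored by family. Filled points passed the adjusted p of 0.05; none did at 3 h, and at 12 h *HSFA4D* and *OsMADS8* lay farthest to the right and *OsGRF1* farthest to the left.

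The *NAC* genes rose by 0.66 to 2.96 on the log2 scale at 12 h. *OsNAC6* (SNAC2, LOC4325006), a factor of drought and salt tolerance in rice, had signals of 46.8, 58.2 and 52.5 on the mock 12 h arrays and 366, 432 and 424 on the DEX 12 h arrays. The groups were fully apart. The change was 7.77-fold (log2 2.96, SE 0.15, adjusted p = 6.98e-08 in limma), larger than that of 99.2% of all rows. *OsNAC4* (ONAC068, LOC4327485), an activator of hypersensitive cell death in rice, read 63.3, 72.1 and 64.5 in mock 12 h and 388, 452 and 336 in DEX 12 h. Its lowest DEX array stood well above its highest mock array, and the change was 5.85-fold (log2 2.55, SE 0.19, adjusted p = 8.94e-07 in limma). *OsNAC8* (NTL3, LOC4325120), a membrane-anchored NAC factor of the heat response, read 156, 179 and 162 in mock 12 h and 900, 864 and 843 in DEX 12 h, 5.25-fold higher (log2 2.39, SE 0.12, adjusted p = 4.81e-08 in limma). A second row, paired in the annotation with *OsNAC8* and another gene, moved the same way by less. Its mean went from 272 to 421 (log2 0.63, adjusted p = 0.000152 in limma), and how much of it comes from *OsNAC8* was not tested.

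The other 4 *NAC* genes changed less. *OsNAC3* (ONAC067, LOC4342753) read 33.6, 25.9 and 28.5 in mock 12 h and 72, 80.1 and 96.2 in DEX 12 h, 2.82-fold higher (log2 1.495, SE 0.14, adjusted p = 5.04e-06 in limma). *NAC077* (ONAC300, LOC4351370), known for its expression in the phloem, read 7.94, 8.32 and 8.01 in mock 12 h and 13.5, 16.2 and 19.8 in DEX 12 h, 2.02-fold higher (log2 1.01, SE 0.13, adjusted p = 6.76e-05). *NAC45* (ONAC045, LOC4349650), induced by drought and salt in rice, read 17.7, 19.4 and 16.3 against 38.3, 29.7 and 30.4, 1.84-fold higher (log2 0.88, SE 0.19, adjusted p = 0.00315 in limma). *NAC010* (ONAC010, LOC4343630) read 10.2, 11.7 and 8.78 against 13.8, 18.7 and 16.2, 1.58-fold higher (log2 0.66, SE 0.14, adjusted p = 0.00234 in limma). No DEX 12 h array of these genes overlapped the mock 12 h arrays. The last 3 genes have mean signals under the 25th percentile of all rows (22.3), and how much of these signals is background was not tested. Every *NAC* call at 12 h held under the other normalizations and without any single array.

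**Figure D2:**
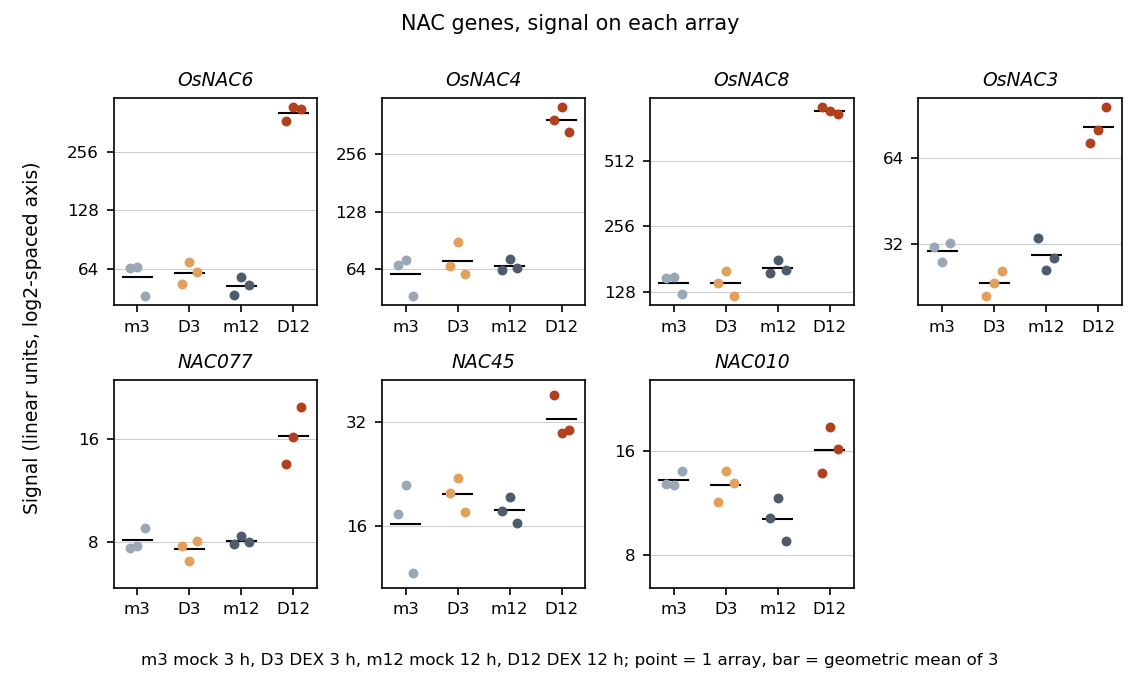
Signal (linear units on a log2-spaced y axis) of the 7 *NAC* genes on each array, by group on the x axis (m3 and m12, mock at 3 h and 12 h; D3 and D12, DEX at 3 h and 12 h). Points are arrays and bars the geometric mean of 3; in each panel the DEX 12 h arrays lie above every mock 12 h array.

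Among the genes with an *SPL* name, the one with the largest change was not an SBP gene. *HSFA4D* (synonym SPL7, spotted leaf, LOC4339409), a class A heat shock factor whose loss gives leaf spots in rice, read 39, 42 and 77.3 in mock 12 h and 1559, 1528 and 1659 in DEX 12 h. It was 31.5-fold higher (log2 4.98, SE 0.24, adjusted p = 4.07e-08 in limma), and replicate 3 of mock 12 h stood above the other mock arrays without reaching the DEX level. *OsAT1* (synonym SPL18, LOC4348247) read 79.6, 80.6 and 64.7 against 52.7, 65.5 and 62.4, groups that overlapped (log2 -0.32, SE 0.19, adjusted p = 0.206).

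Of the 6 SBP genes, *SPL1* and *SPL9* rose and the other 4 did not pass the test. *SPL1* (LOC4325162) read 237, 276 and 278 in mock 12 h and 622, 631 and 645 in DEX 12 h, 2.41-fold higher (log2 1.27, SE 0.10, adjusted p = 1.44e-06 in limma). *SPL9* (LOC4338766), a regulator tied to copper in rice, read 481, 454 and 497 against 845, 884 and 821, 1.78-fold higher (log2 0.83, SE 0.08, adjusted p = 1e-05 in limma). Both belong to the SPL genes that miR156 does not target. The other gene of that kind analysed here was *SPL6*, which represses an endoplasmic reticulum stress sensor in the rice panicle. Its signals were 314, 318 and 294 against 298, 288 and 302 (log2 -0.06, 95% interval -0.27 to 0.15). The 3 miR156 targets analysed here also had intervals that included 0. *SPL7*, distinct from *HSFA4D*, read 45.7, 38.7 and 41 against 54.6, 45.4 and 45.8 (log2 0.22, interval -0.07 to 0.50). *SPL4* read 69.8, 75.9 and 66.5 against 74.4, 64.9 and 68.5 (log2 -0.03, interval -0.30 to 0.24). *SPL16* (GW8), which sets grain width, was the least certain, with 29.3, 17.6 and 13.1 in mock 12 h against 17.4, 17.8 and 16.3 (log2 -0.14, interval -0.69 to 0.42). Its mock 12 h arrays were themselves widely spread, and the DEX 12 h arrays lay within their range.

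Of the 4 *GRF* genes, 3 fell at 12 h, but the call of *OsGRF1* alone held under each scaling. *OsGRF1* (LOC4330903), first cloned as a gibberellin-induced gene of growing rice stems, read 234, 247 and 228 in mock 12 h and 113, 81.3 and 113 in DEX 12 h. The groups were fully apart and the gene fell 2.33-fold (log2 -1.22, SE 0.13, adjusted p = 1.78e-05 in limma). *OsGRF12* (LOC4336731) read 93.8, 97.1 and 127 against 89.6, 82.2 and 67.6 (log2 -0.40, SE 0.14, adjusted p = 0.0314 in limma). *OsGRF6* (LOC4333990), a gene of panicle branching, read 412, 415 and 399 against 374, 317 and 321 (log2 -0.28, SE 0.11, adjusted p = 0.0497 in limma). *OsGRF11* read 172, 151 and 146 against 132, 139 and 160, with overlapping arrays (log2 -0.12, adjusted p = 0.396), and turned to 0.07 under quantile normalization. Of the 3 calls, that of *OsGRF1* held under each alternative run. The call of *OsGRF12* was lost under median centring (adjusted p = 0.0738), quantile normalization (0.176) and a fit of 6 arrays (0.0889), and without replicate 2 (0.0532) or 3 (0.113) of DEX 12 h or replicate 3 of mock 12 h (log2 -0.27, 0.132). That of *OsGRF6* was lost under the same settings (0.141, 0.216 and 0.0835) and with an adjusted p between 0.0573 and 0.142 without any 1 of 9 arrays, namely each mock 12 h array, replicates 2 and 3 of DEX 12 h, and replicates 1 and 3 of both 3 h groups.

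**Figure D3:**
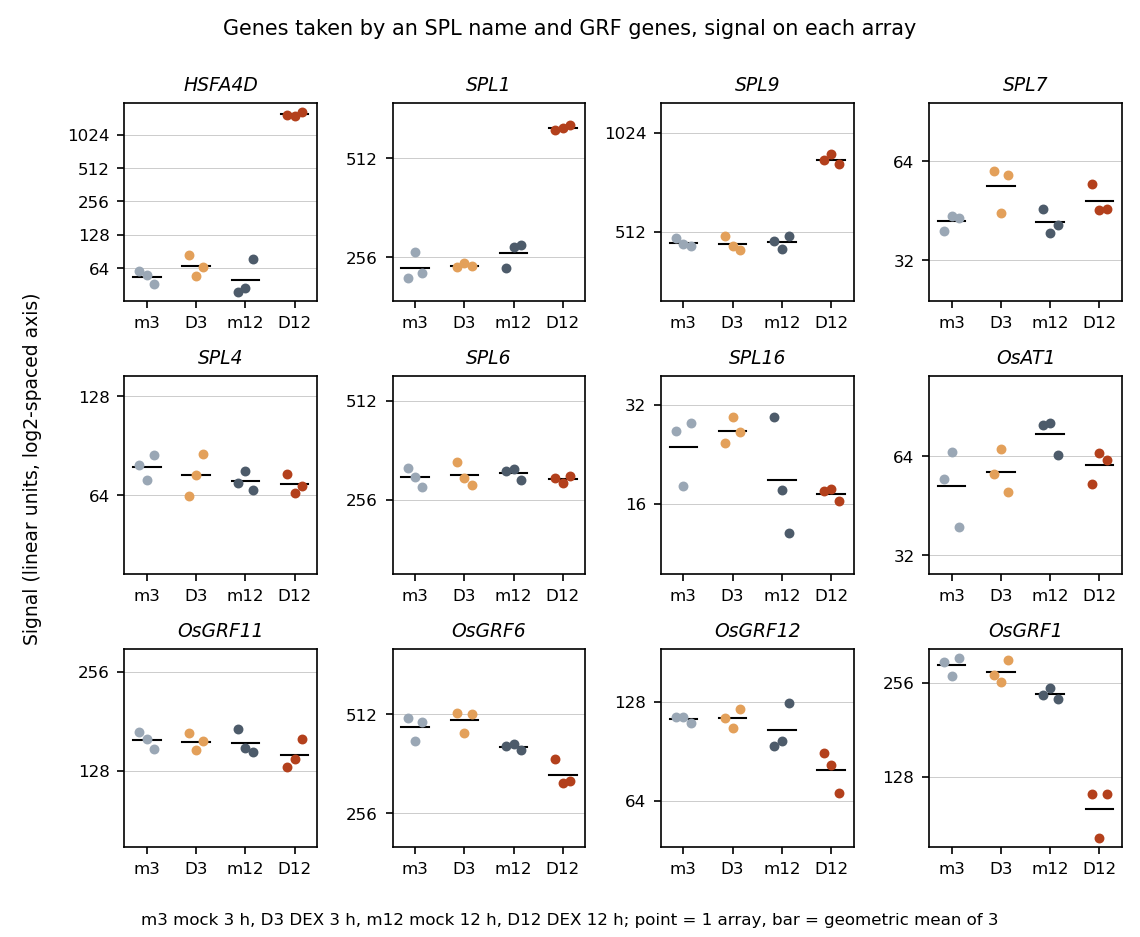
Signal (linear units on a log2-spaced y axis) of the 8 genes with an *SPL* name and the 4 *GRF* genes on each array, by group on the x axis (m, mock; D, DEX; 3 or 12 h), with the geometric mean of 3 arrays as a bar. *HSFA4D*, *SPL1* and *SPL9* stand higher and *OsGRF1* lower on the DEX 12 h arrays, while *SPL4*, *SPL6* and *SPL16* overlap between mock and DEX.

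Among the *MADS* genes, 16 of 21 did not pass the test at 12 h. The largest change was that of *OsMADS8* (MADS24, LOC4347517), a SEPALLATA-like gene of floral organ identity, with signals of 11.6, 12.4 and 9.76 in mock 12 h and 71.2, 90.9 and 142 in DEX 12 h. The 3 h arrays read 9.11 to 11.7 in both groups. At 12 h the change was 8.7-fold (log2 3.12, SE 0.21, adjusted p = 4.31e-07 in limma), and the DEX arrays were more spread than those of any other group of this gene. Its mock signals lie under the 25th percentile of all rows (22.3), and how much of them is background was not tested. A second row is paired in the annotation with both *OsMADS8* and its close relative *OsMADS7* (MADS45). Its mean was 12.2 in mock 12 h and 10.9 in DEX 12 h (log2 -0.17, adjusted p = 0.463 in limma). The rise was thus not seen in that row, and how much of its signal comes from *OsMADS8* was not tested. Beside *OsMADS8*, 3 genes of the list of floral organ markers could be read by name, and *OsMADS2* of that list, described next, was left out of its sum because the name MADS2 matches 2 genes. *OsMADS3* (C class, stamens), *OsMADS58* (C class, floral meristem determinacy) and *OsMADS16* (SPW1, B class) had log2 changes of -0.29, -0.04 and -0.21, none of which passed the test. The summed signal of *OsMADS8* and these 3 genes was 77 to 79.2 on the mock 12 h arrays and 127 to 199 on the DEX 12 h arrays.

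*OsMADS2* (LOC4325001), a PISTILLATA-like B class gene of lodicules, rose from 27.5, 30.4 and 22.3 in mock 12 h to 47.7, 47 and 51.9 in DEX 12 h, 1.84-fold (log2 0.88, SE 0.14, adjusted p = 0.000387 in limma). The groups did not overlap.

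Of the *MADS* genes that fell, *OsMADS26* (LOC4344493), an AGL12-like gene of the drought and pathogen response, read 72.1, 57.5 and 65 in mock 12 h and 32.9, 34.3 and 27.2 in DEX 12 h. It fell 2.06-fold (log2 -1.05, SE 0.20, adjusted p = 0.00141 in limma) with the groups apart. *OsMADS26* was also in the list of 3 root markers. There *QHB*, a gene of the root quiescent center, rose by 3.92 on the log2 scale, *OsMADS27* had 0.35 (adjusted p = 0.12), and the summed signal was 102 to 123 on the mock 12 h arrays and 259 to 377 on the DEX 12 h arrays. The AP1/FUL class acts in the change from vegetative growth to flowering. The 2 genes of this class that were analysed here both fell. *OsMADS18* (LOC4343851) read 36.1, 38.5 and 35.7 against 20.9, 21 and 17.5, 1.86-fold lower (log2 -0.90, SE 0.19, adjusted p = 0.00275 in limma). *OsMADS20* (LOC4352275) read 28.8, 25.7 and 21.5 against 18.7, 19.3 and 9.54, 1.66-fold lower (log2 -0.74, SE 0.23, adjusted p = 0.0222 in limma). Replicate 3 of DEX 12 h was the lowest of all 12 arrays for *OsMADS20*, and without it the log2 change was -0.40 (adjusted p = 0.0324). The call of *OsMADS20* was lost in a fit of the 6 arrays of 12 h (adjusted p = 0.0697) and without replicate 1 (0.0785) or 2 (0.0582) of mock 12 h.

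**Figure D4:**
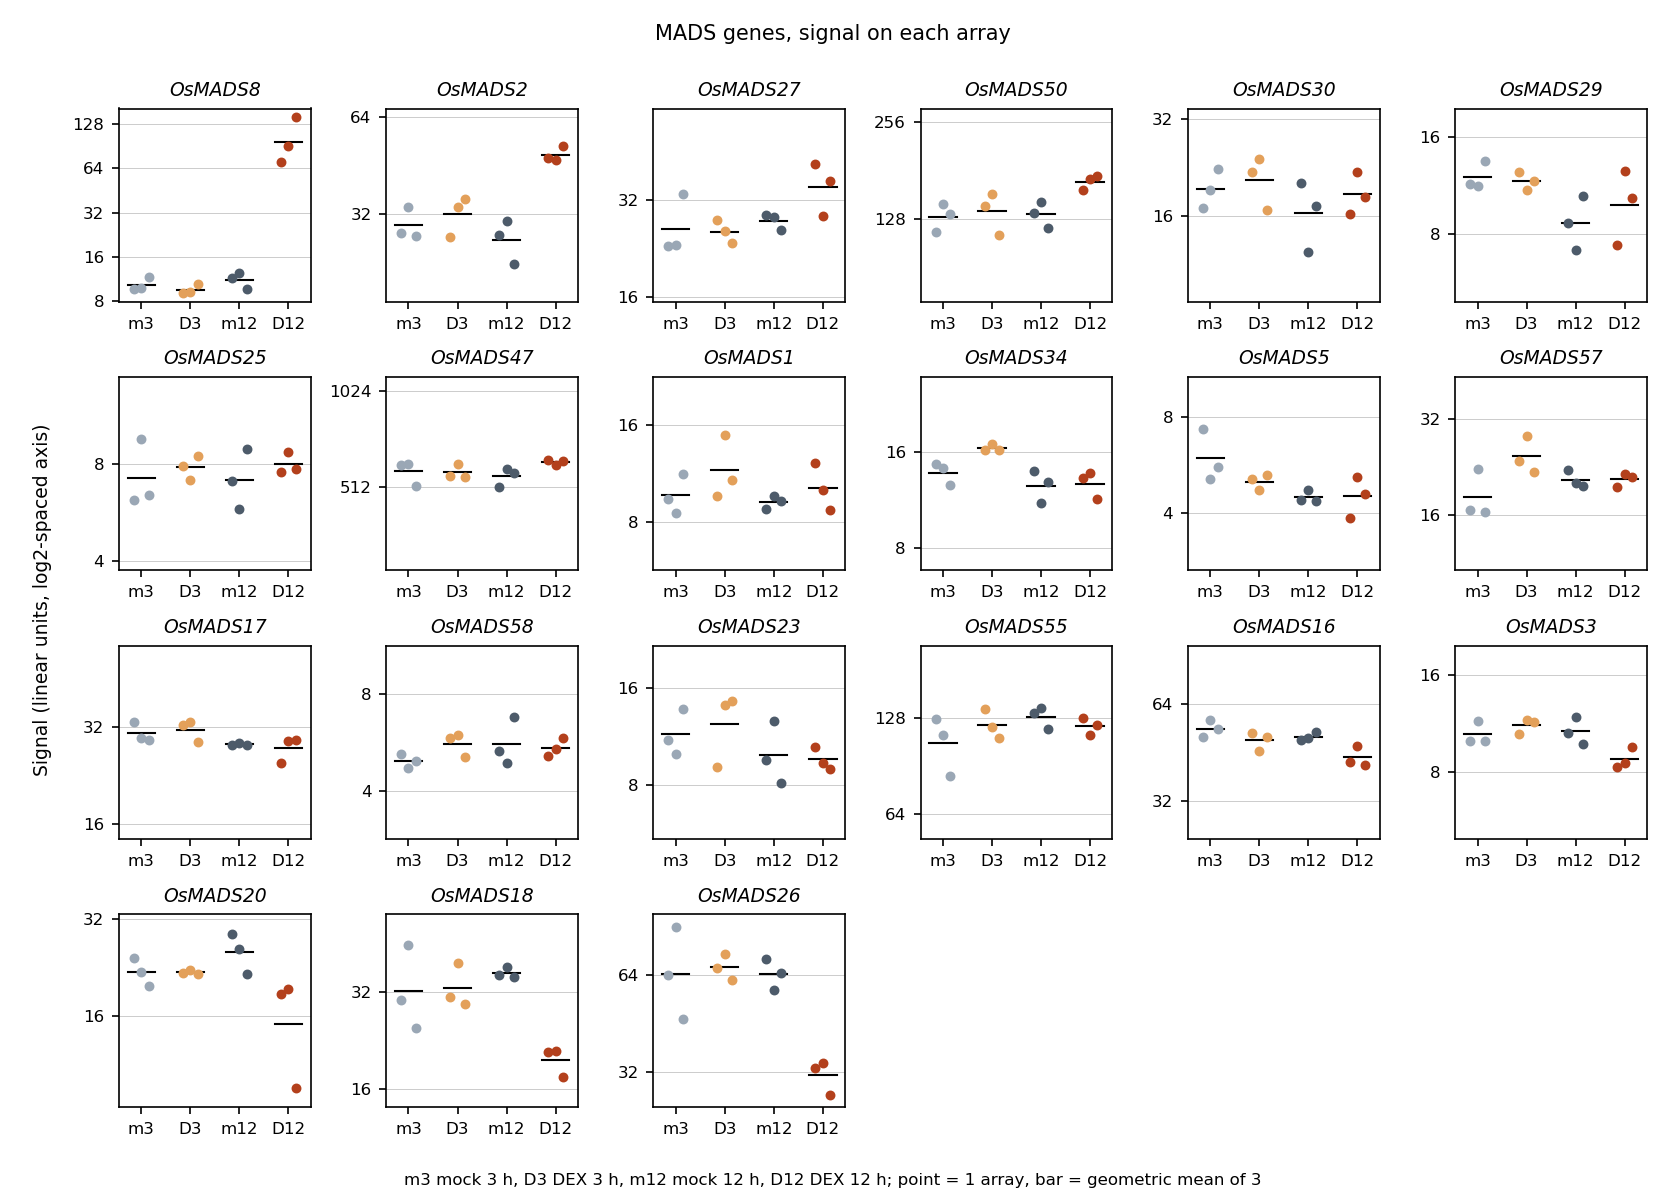
Signal (linear units on a log2-spaced y axis, range set per panel) of the 21 *MADS* genes on each array, by group on the x axis (m, mock; D, DEX; 3 or 12 h), ordered by the change at 12 h with the geometric mean of 3 arrays as a bar. *OsMADS8* and *OsMADS2* stand higher and *OsMADS26*, *OsMADS18* and *OsMADS20* lower on the DEX 12 h arrays, and in most other panels the mock 12 h and DEX 12 h arrays overlap.

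Several *MADS* genes known from the vegetative shoot did not pass the test at 12 h. *OsMADS50*, a SOC1-like promoter of flowering, read 134, 144 and 120 in mock 12 h and 158, 170 and 174 in DEX 12 h. Its arrays were apart, and its change just missed the limit (log2 0.34, interval 0.06 to 0.62, adjusted p = 0.0534 in limma), which it passed, among other settings, under quantile normalization (log2 0.53, adjusted p = 0.00462) and median centring (0.0217), and without replicate 2 (0.0469) or 3 (0.0322) of DEX 3 h. *OsMADS47*, an SVP-like repressor of brassinosteroid responses, read 514, 584 and 569 against 622, 603 and 619 (log2 0.15, interval -0.07 to 0.36). *OsMADS55*, of the same class, read 132, 137 and 118 against 128, 113 and 121 (log2 -0.10, interval -0.42 to 0.23). *OsMADS57*, a target of miR444 that represses the strigolactone receptor gene *D14* in rice, read 22.1, 20.1 and 19.8 against 19.6, 21.6 and 21, a log2 change of 0.00 (interval -0.30 to 0.31). *D14* itself rose from 198 ± 13.8 to 428 ± 45.6 (SD, n = 3; log2 1.11, adjusted p = 0.000154 in limma).

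The panicle and spikelet genes of the SEPALLATA class analysed here, *OsMADS8* among them, had mean signals under the 25th percentile of all rows. Except for *OsMADS8*, their mock and DEX arrays overlapped at 12 h. *OsMADS1* (LHS1), which specifies the lemma and palea, read 8.79, 9.67 and 9.33 in mock 12 h and 12.3, 10 and 8.72 in DEX 12 h (log2 0.15, interval -0.24 to 0.53). Its dimmer row had a log2 change of -0.54 (adjusted p = 0.103). *OsMADS5* read 4.39, 4.71 and 4.37 against 3.86, 5.19 and 4.6 (log2 0.01), and *OsMADS34* (PAP2), a gene of spikelet meristem identity, 13.9, 11.1 and 12.8 against 13.3, 13.7 and 11.4 (log2 0.02). The remaining genes, *OsMADS17*, *OsMADS23*, *OsMADS25*, *OsMADS27*, *OsMADS29* and *OsMADS30*, had log2 changes between -0.05 and 0.35. *OsMADS3* (log2 -0.29, adjusted p = 0.0521) passed with only 1 row per gene in the fit (0.0272). It also passed without replicate 3 of DEX 12 h (0.0317), replicate 3 of mock 12 h (0.0414) or replicate 2 of mock 3 h (0.0498). *OsMADS27* passed without replicate 2 of DEX 12 h (0.0376). Of the 21 *MADS* genes, 12 had a mean signal under the 25th percentile of all rows and 17 under the median (52.5). Near background, a difference of RNA level need not show as a difference of signal.

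After 3 h of DEX no gene of the 40 was called by limma, beside 0.244% of all rows. At an unadjusted p under 0.05 there were 4, beside 6.11% of rows. The log2 changes of the 40 genes lay between -0.38 and 0.42. *OsMADS57* read 16.6, 22.4 and 16.4 in mock 3 h and 23.6, 28.3 and 21.9 in DEX 3 h (log2 0.42, adjusted p = 0.555 in limma), groups that overlapped by 1 array. *OsNAC3*, which rose at 12 h, read 31.1, 27.5 and 32 against 21, 23.3 and 25.7 (log2 -0.38, adjusted p = 0.688). The others were *SPL7* (log2 0.36, adjusted p = 0.681) and *OsMADS34* (log2 0.25, adjusted p = 0.817). The DEX and mock arrays of 3 h were fully apart for 3 genes of the 40, beside 10.7% of all rows.

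The DEX effect at 12 h differed from that at 3 h for 14 genes, 11 higher and 3 lower, in the same limma fit (29.9% of all rows were called, 10.4% higher and 19.5% lower). The 11 were *HSFA4D*, *OsMADS8*, *OsMADS2*, *SPL1*, *SPL9* and 6 of the 7 *NAC* genes. *NAC45* was the exception, with a log2 difference of 0.59 (interval -0.01 to 1.19, adjusted p = 0.132), and passed without replicate 3 of mock 3 h (0.0138). *OsGRF1*, *OsMADS26* and *OsMADS18* were the 3 lower genes. *OsMADS3* was not called (log2 -0.38, adjusted p = 0.0857 in limma) but passed with only 1 row per gene in the fit (0.0447). *OsGRF12*, *OsGRF6* and *OsMADS20* fell at 12 h, but their effects at the 2 times were not shown to differ (adjusted p = 0.136, 0.0966 and 0.116), except that *OsGRF6* passed (0.0433) when rows under the median signal were left out. The difference of *OsMADS18* was lost without replicate 3 of DEX 12 h (0.0528), replicate 2 of DEX 3 h (0.0581), replicate 2 of mock 12 h (0.0538) or replicate 1 of mock 3 h (0.0546), and that of *OsMADS57* (log2 -0.42, adjusted p = 0.133) passed without replicate 2 of mock 3 h (0.0308).

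Between the mock groups, no gene of the 40 differed between 12 h and 3 h by the adjusted p, and 0% of all rows did. At an unadjusted p under 0.05 there were 5 genes, beside 10.2% of rows, with log2 changes of 0.52 for *OsAT1*, -0.48 for *OsMADS29*, -0.40 for *OsMADS5*, -0.37 for *NAC010* and -0.31 for *OsGRF1*. The adjusted p-values of these 5 in limma lay between 0.381 and 0.471. The mock arrays are shared with both DEX comparisons. For *OsGRF1* the mock means were 292 ± 19.6 at 3 h and 236 ± 9.97 at 12 h (SD, n = 3), and the DEX 12 h mean was 102 ± 18.2. For *NAC010* the DEX 12 h arrays (13.8, 18.7 and 16.2) overlapped the mock 3 h arrays (12.8, 12.7 and 13.9), while they lay above the mock 12 h arrays.

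Partners and regulators of these families were taken from a list of genes with known links to them, and 25 were read. The GIF coactivator genes *GIF1*, *GIF2* and *GIF3*, also in that list, were not found by name. At 12 h 4 of the 25 rose, 8 fell and 13 did not pass the test. The shares that rose and fell were near the 14.9% and 28.0% of all rows. With 1 row per gene, the shares over all genes were 22.8% and 32.4%. At 3 h none of the 25 passed. The genes with the largest falls were *PCF5* and *PCF6*, which encode TCP factors. *PCF5* went from 264 ± 17 to 89.4 ± 9.36 (SD, n = 3; log2 -1.56, adjusted p = 3.73e-07 in limma) and *PCF6* from 228 ± 10.1 to 92.8 ± 23.3 (log2 -1.32, adjusted p = 7.19e-05), while *PCF7* and *PCF8* of the same family had log2 changes of 0.03 and -0.13 (adjusted p = 0.864 and 0.459). *AGO1D*, one of the Argonaute genes through which miRNAs act, fell by 1.09 on the log2 scale (adjusted p = 2.29e-05 in limma), whereas *AGO1A*, *AGO1B* and *AGO1C* had log2 changes of 0.11, 0.03 and -0.12 and did not pass. The plastochron genes *PLA1* and *PLA3* fell by 0.38 and 0.51 on the log2 scale (adjusted p = 0.0494 and 0.00105 in limma). The mock 12 h and DEX 12 h arrays of *PLA1* overlapped. Its p-value lay just under the limit, and whether its call holds under other processing was not tested. *TPR2*, a TOPLESS-like corepressor gene, went from 669 ± 6.85 to 406 ± 11.8 (log2 -0.72, adjusted p = 1.54e-05 in limma). Beside *D14*, the gene *RSR1* of an APETALA2-type factor rose by 1.05 on the log2 scale (adjusted p = 3.31e-05 in limma). *SGR*, a stay-green gene of chlorophyll breakdown, rose by 0.76 (adjusted p = 0.00403 in limma). *NYC1*, also in that list, had a log2 change of 0.03 and did not pass (adjusted p = 0.849 in limma). The flowering genes *HD3A* and *HD1* had log2 changes of 0.23 and 0.16, with adjusted p-values of 0.238 and 0.391.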

How the data were processed

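All 12 arrays were used. The authors normalized them in Affymetrix Expression Console 1.3. The range of the deposited values was that of log2 signals, and no scaling was added to the main fit. Of 54922 rows, 15829 had 1 gene in the annotation, 440 had several and 38653 had no gene. Names came from the array annotation and a reference gene table of assembly ASM3414082v1, used only for names, which matched all 15140 genes; 2 rows shared by several genes were set apart. In limma 3.58.1 (under R 4.3.3), 4 group means were fitted, variances were moderated and p-values were adjusted after Benjamini and Hochberg over all rows. Arrays have no read depth, and their number limits the precision. The labels number the replicates; the methods call them biological. Named genes were, per family, up to 4 largest called rises and falls at 12 h, all called at 3 h and a list of known developmental and stress genes; other members named with values, and partner examples, were added after their values were seen. The members and lists were chosen with earlier results of these data known. Alternatives covered scaling, dim rows, variance trend, rows and names used, call limit, replicate block, arrays in the fit and single arrays; leaving out *HSFA4D* and *OsAT1* was added after seeing the data. The fit was tested on simulated data. Figures were drawn with matplotlib 3.10.9.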

Additional observations from a re-analysis of the deposited data

Results flagged for a closer look

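For 14 genes the DEX effect at 12 h differed from that at 3 h in limma, by a test of the difference itself at an adjusted p under 0.05 (29.9% of all rows). The difference of the log2 changes was 4.67 for *HSFA4D*, 3.22 for *OsMADS8*, 1.24 for *SPL1*, 0.84 for *SPL9* and 0.77 for *OsMADS2*. Among the *NAC* genes it was 2.88 for *OsNAC6*, 2.40 for *OsNAC8*, 2.33 for *OsNAC4*, 1.87 for *OsNAC3*, 1.10 for *NAC077* and 0.72 for *NAC010*. It was below 0 for *OsGRF1* (-1.14), *OsMADS26* (-1.12) and *OsMADS18* (-0.93). Each group held 3 arrays, too few to look for single arrays that stand apart by a fixed limit.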

How the results depend on the processing

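With alternative processing, no called gene changed direction. At 12 h, 18 genes were called. With only 1 row per gene in the fit 20 were called, among them all 18. Leaving out rows under the median left 17 of the 40 genes, of which 11 were called (7 higher); taking names by symbol left 1 gene, called higher, with 0 lower; a 2-fold change with an unadjusted p under 0.01 gave 10 calls, 2 of them lower; and with just the 6 arrays of 12 h in the fit there were 3 lower. For the difference of the effects, 14 genes were called; the filter at the median gave 9 (6 higher), and names by symbol 1, higher, with 0 lower. Without single arrays the calls at 12 h ranged from 16 to 19 (12 to 13 higher, 4 to 7 lower) and those of the difference from 13 to 15 (11 to 12 higher, 2 to 4 lower), and at 3 h and between the mock groups they stayed at 0. Without *HSFA4D* and *OsAT1* the calls were 17 of 38 and 13. Median centring and quantile normalization gave 17 calls each at 12 h, of which 16 were among the 18, and shifted the median of all rows by 0.08 and 0.09. Deviations from the group mean of samples with the same replicate number had correlations of -0.05 to 0.17. Between mock 3 h and DEX 3 h these were -0.048 to 0.17, beside -0.15 to 0.067 for different numbers. These values do not settle whether the numbers pair the arrays. With the replicate number as a block, 18 genes were called at 12 h, 17 of them shared, and 14 for the difference; *OsGRF12* lost its call (adjusted p = 0.053) and *OsMADS50* gained one (0.045). Signals near background limit what the 16 genes under the 25th percentile can show.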
